A study of Sus scrofa with 23 samples.

Results

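The peptidases and peptide transporters of the proximal tubule brush border were examined in kidney cortex RNA of newborn pigs. The 10 genes ANPEP, XPNPEP2, DPP4, DPEP1, GGT1, MME, MEP1A, MEP1B, SLC15A1 and SLC15A2 were taken by symbol from the 26687 genes of the annotation that accompanied the libraries, and each symbol stood for 1 protein-coding gene. RNA-Seq libraries came from 23 separate animals, 11 labelled CFTR-/- (CF), 6 labelled CFTR+/- (HET) and 6 wild-type (WT). All were newborn offspring of matings between CFTR+/- pigs, and the labels name no further allele or treatment. The labels give neither sex nor litter, and the tissue is whole cortex, so that fewer proximal tubule cells and less RNA per cell cannot be told apart in any value below.

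Peptides that pass the glomerular filter are cut at the brush border, the dense layer of microvilli on the luminal side of proximal tubule cells. Enzymes anchored there with their active sites facing the lumen trim peptides to single amino acids and to dipeptides and tripeptides. Amino acids then enter through their own carriers, and the short peptides enter together with protons through the peptide transporters PEPT1 (SLC15A1) and PEPT2 (SLC15A2). The study asked how loss of CFTR changes the handling of amino acids by the kidney, and these genes supply part of what the amino acid carriers take up.

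For 2 reasons the regions around annotated transcript starts are shown first. ANPEP has starts in separate places, and the transcripts that begin there took very different shares in different libraries, whereas the levels of DPP4 and MME had the highest correlation across libraries among the pairs of members. The ANPEP transcript that begins at 55365997 also differs from the genome by 10 substitutions, so its share is no measure of start use alone. Each sequence is the RefSeq genome sequence of Sscrofa11.1 on the strand of the gene, from 250 bases before the annotated start to the 50 bases that begin with it. Capitals mark the letters GTTAAT, of the kind bound by the tubule factor HNF1. The first ANPEP window (chr7:55365948-55366247, minus strand) surrounds the start at 55365997 and the second (chr7:55373807-55374106, minus strand) the start at 55373856. The DPP4 window is chr15:68742912-68743211 on the minus strand, around a start annotated as incomplete, and the MME window is chr13:95019225-95019524 on the plus strand, around the start of the transcript with the largest share of MME.
ANPEP, start at 55365997: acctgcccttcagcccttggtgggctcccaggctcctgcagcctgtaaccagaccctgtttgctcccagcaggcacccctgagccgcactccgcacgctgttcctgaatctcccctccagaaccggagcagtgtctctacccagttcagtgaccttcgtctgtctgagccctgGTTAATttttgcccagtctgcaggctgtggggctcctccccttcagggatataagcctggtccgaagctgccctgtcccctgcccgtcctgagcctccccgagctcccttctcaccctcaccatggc
ANPEP, start at 55373856: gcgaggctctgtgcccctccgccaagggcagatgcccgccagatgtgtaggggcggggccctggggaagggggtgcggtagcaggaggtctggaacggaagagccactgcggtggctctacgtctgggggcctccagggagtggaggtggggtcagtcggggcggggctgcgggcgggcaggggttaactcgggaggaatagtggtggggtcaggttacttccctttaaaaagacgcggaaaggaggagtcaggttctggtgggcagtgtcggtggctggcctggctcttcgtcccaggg
DPP4: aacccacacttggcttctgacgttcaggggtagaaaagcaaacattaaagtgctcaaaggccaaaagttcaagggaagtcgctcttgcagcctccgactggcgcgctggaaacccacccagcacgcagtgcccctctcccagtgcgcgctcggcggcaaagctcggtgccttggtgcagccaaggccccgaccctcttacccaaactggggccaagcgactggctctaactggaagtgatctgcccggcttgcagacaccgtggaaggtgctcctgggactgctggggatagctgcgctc
MME: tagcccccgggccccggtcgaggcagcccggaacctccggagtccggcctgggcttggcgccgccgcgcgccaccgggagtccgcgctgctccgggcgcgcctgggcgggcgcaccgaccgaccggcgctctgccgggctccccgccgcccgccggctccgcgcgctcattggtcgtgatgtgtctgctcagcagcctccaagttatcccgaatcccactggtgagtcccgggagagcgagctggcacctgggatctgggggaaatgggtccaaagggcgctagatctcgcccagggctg

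The letters GTTAAT were searched on both strands in all 31 start windows of the members and in 47449 windows of the annotation, of which 6.35% held them. They occurred in 4 of the 31 member windows, 1 window each of 4 members, at -77 to -72 from the first ANPEP start, at -174 to -169 from 1 DPEP1 start, at -146 to -141 from 1 MEP1B start and at -29 to -24 from the SLC15A1 start, which is also annotated as incomplete. CAAAGTC, of the kind bound by HNF4, occurred in 4 of the 31 member windows, of DPEP1, MEP1A and MME, against 3.15% of all windows. TATAAA occurred in 5 of the 31, of MEP1A, MME and SLC15A2, against 9.94% of all windows, and windows of 1 gene can overlap. The DPP4 window and the printed MME window held none of these letters. A match describes the letters only.

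Libraries held 32901194 to 52952229 estimated counts after summing to genes, and a limit of 3 counts lay between 0.0567 and 0.0912 CPM, the unit of counts scaled to library size, which covers counting error only. The defining proximal tubule genes LRP2 and SLC34A1 were at 248 to 474 TPM (counts scaled to transcript length and depth) and 244 to 544 TPM. Other markers of that list were much lower, down to SLC17A3 at 1.93 to 4.59 TPM, the lowest mean of the list, which was picked out after its values were seen. The summed level of 20 proximal tubule markers was 3210 ± 593 TPM in WT (SD, n = 6), 3375 ± 613 in HET (n = 6) and 3428 ± 517 in CF (n = 11). Other cortical cells were present, since the thick ascending limb gene UMOD and the collecting duct gene AQP2 were detected in all libraries, while the leukocyte gene PTPRC stayed at or below 4.22 TPM and the nephron progenitor gene SIX2 at or below 1.13 TPM. The summed level of 10 leukocyte markers was 30.4 to 62.2 TPM, and that of 6 progenitor markers 23.4 to 34.8 TPM. The sum of 7 stroma markers was 1059 ± 310.2 TPM in WT, 800.4 ± 63.0 in HET and 891 ± 132 in CF. The sum of 9 markers of Henle's loop and the distal tubule was 777 ± 85.2 TPM in CF against 1018 ± 147 in WT and 1019 ± 325 in HET, and the part of either list in the values below was not tested. CFTR, the gene that names the labels, was at 1.27 to 3.67 CPM in WT, 9.41 to 17.5 CPM in HET and 12.5 to 23.5 CPM in CF, so its RNA was more abundant in the libraries labelled CF and HET. The log2 fold change of CFTR was 3.14 between CF and WT (edgeR adjusted p 1.24e-10) and 2.47 between HET and WT (edgeR adjusted p 5.13e-08). The labels name genotypes and not RNA levels, so the CFTR level leaves the labels unchecked. The reason for the higher CFTR level was not tested, and each direction given below is between libraries as labelled. Libraries also stood apart by pig number on a multidimensional scaling axis. Pigs 1 to 6 and 12 to 18 form the first set (13 libraries), and pigs 7 to 11 and 19 to 23 the second set (10 libraries). These sets were chosen after an earlier look at these data had found libraries apart along the pig numbers. Their separation on the axis is therefore no independent check. The labels name no batch, and both sets held all 3 labels.

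Of the 10 genes, the peptidases ANPEP, MME, XPNPEP2, DPP4 and GGT1 had the highest mean levels, while DPEP1, both meprin genes and SLC15A1 were below the peptide transporter gene SLC15A2. TPM is corrected for transcript length and can be compared between genes. ANPEP, or aminopeptidase N, which removes the first residue of peptides, had the highest mean of the 10 genes at 229 TPM ± 65.8 (SD, n = 23) and ranked 260 of 25476 detected genes in WT. It was followed by MME, or neprilysin, at 141 ± 25.4 TPM, XPNPEP2, or membrane aminopeptidase P, at 88.8 ± 22.1 TPM, DPP4 at 66.8 ± 13.8 TPM and GGT1, or gamma-glutamyltransferase, at 49.6 ± 13.8 TPM. SLC15A2 had a mean of 28.4 ± 5.16 TPM and DPEP1, or membrane dipeptidase, of 26.6 ± 12 TPM. The meprin subunits differed widely, with MEP1B at 9.07 ± 4.30 TPM and MEP1A at 0.037 ± 0.0254 TPM. SLC15A1 had a mean of 1.20 ± 0.429 TPM, far below SLC15A2.

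Most neighbours in this order were separated within the same library. MME was above XPNPEP2 in 23 of 23 libraries, with a difference of 51.9 ± 22.6 TPM. DPEP1 exceeded MEP1B, MEP1B exceeded SLC15A1 and SLC15A1 exceeded MEP1A, each in 23 of 23 libraries. ANPEP was above MME in 20 of 23 libraries, with a difference of 87.9 ± 70.3 TPM, and XPNPEP2 was above DPP4 in 20 of 23, with a difference of 22 ± 20.9 TPM. GGT1 exceeded SLC15A2 in 22 of 23 libraries. The difference between DPP4 and GGT1, 17.3 ± 17.9 TPM, and that between SLC15A2 and DPEP1, 1.82 ± 12.5 TPM, did not exceed their spread, and in HET the order of the latter pair was the opposite. The summed TPM of the 8 peptidases was 601 ± 108 in WT, 580 ± 101 in HET and 632 ± 79.2 in CF, and that of both transporters was 31.0 ± 1.58, 26.9 ± 6.10 and 30.3 ± 5.70 in the same order of labels.

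**Figure D1:**
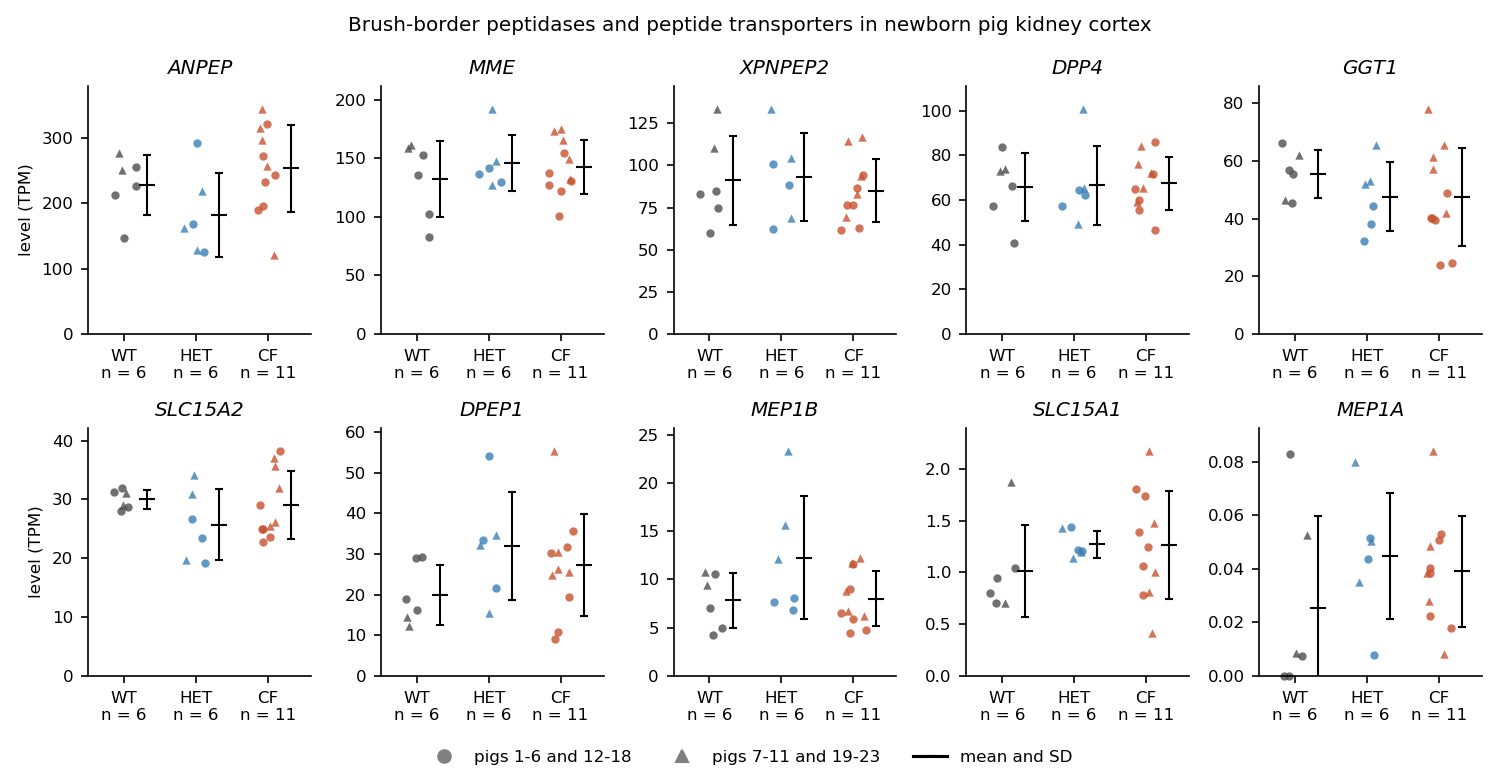
Level of each of the 10 genes (vertical axis, TPM, starting at 0) in every library, by genotype label (WT, n = 6, HET, n = 6, CF, n = 11). Circles are pigs 1 to 6 and 12 to 18, triangles are pigs 7 to 11 and 19 to 23, and the bar is the mean with the SD, cut at 0 for MEP1A. The libraries of the 3 labels overlapped for all 10 genes.

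To determine whether expression of these genes differed with the CFTR genotype label, the 11 CF libraries were compared with the 12 non-CF libraries (WT and HET together). None of the 9 genes tested passed the adjusted threshold. Across all genes, 73 of 20921 (0.349%) had an adjusted p under 0.05 in edgeR's quasi-likelihood test, and 0 of the 9 members were among them. At an unadjusted p under 0.05 the count was 1 of 9 members against 13.7% of all genes tested, and the other tools also gave 0 of 9 at an adjusted p under 0.05, against 2.46% of all genes in DESeq2, 0.22% in limma-voom, 0.22% with the Mann-Whitney U test and 0.707% in edgeR with the set of pigs as a term. MEP1A, with 0 to 10 counts per library, did not pass the expression filter. The median log2 fold change of the 9 members was 0.06, and all 9 intervals (95%) lay within 1 log2 unit of 0, 5 of them within 0.5. The libraries overlapped between the labels for all 9 genes.

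ANPEP was the member with the unadjusted p under 0.05. Its level was 147 TPM in the lowest WT library, 238 at the median and 277 in the highest. In HET it was 126, 165 and 293 TPM, and in CF 121, 257 and 345 TPM. Thus 4 CF libraries lay above all 12 non-CF libraries in TPM (3 in CPM), while the lowest library of all was CF in TPM and HET in CPM. ANPEP was higher in CF than in non-CF by 0.34 on the log2 scale (SE 0.15, 95% interval 0.02 to 0.65, n = 11 and 12), with an unadjusted p of 0.0396 and an edgeR adjusted p of 0.336. The difference was similar in both sets of pigs, at 0.31 (SE 0.20) in the first and 0.37 (SE 0.23) in the second. Without pig 4, labelled CF, it was 0.28 with an unadjusted p of 0.0869, and the unadjusted p was under 0.05 in 12 of 23 fits with 1 library left out. Against HET alone the CF libraries were higher by 0.43 (SE 0.19, unadjusted p 0.0356, edgeR adjusted p 0.469), and by 0.34 (unadjusted p 0.103) without pig 13, labelled HET. Against WT alone they were higher by 0.25 (SE 0.19, edgeR adjusted p 0.611).

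XPNPEP2, which cuts behind a first residue that is followed by proline, lies on chromosome X. Its level ran from 60.03 to 134 TPM in WT with a median of 83.7, from 62.3 to 134 in HET with a median of 94.9, and from 61.95 to 117 in CF with a median of 83.0. These ranges overlapped widely. In CPM the CF libraries held both the lowest and the highest of all, at 196 to 454 CPM. WT lay at 240 to 434 CPM and HET at 241 to 430 CPM. The log2 fold change of XPNPEP2 between CF and non-CF was -0.09 (95% interval -0.34 to 0.16, edgeR adjusted p 0.822).

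DPP4 releases dipeptides from the start of a chain and degrades incretin hormones. It was at 40.6, 69.6 and 83.9 TPM in the lowest, median and highest WT library, at 49.3, 63.2 and 101 TPM in HET and at 46.5, 65.6 and 86.2 TPM in CF. MME, an endopeptidase that inactivates natriuretic peptides and other peptide hormones, was at 83.0, 144 and 161 TPM in WT, at 127, 139 and 192 TPM in HET and at 101, 137 and 175 TPM in CF. For both genes, the lowest library was WT, and the highest was pig 19, labelled HET, in TPM and pig 9, labelled CF, in CPM. The log2 fold change between CF and non-CF was 0.06 for DPP4 (SE 0.11, edgeR adjusted p 0.859) and 0.06 for MME (SE 0.10, edgeR adjusted p 0.852). Without pig 9 these values were 0.0019 and 0.0061. All 6 HET libraries lay above the WT median of MME in CPM, but only 2 of 6 in TPM. From the counts, the log2 fold change of MME between HET and WT was 0.26 (SE 0.13, unadjusted p 0.0523, edgeR adjusted p 0.626), and the unadjusted p was 0.0394 in DESeq2, 0.0354 in limma-voom and 0.0475 in edgeR with the set of pigs as a term. With the mean of the proximal tubule markers as a covariate the difference was 0.14 (SE 0.09, unadjusted p 0.144), and without pig 12, labelled WT, it was 0.18 (unadjusted p 0.143). The DPP4 gene overlaps a noncoding RNA on the opposite strand, and reads of the overlap cannot be assigned where strand was not used.

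DPEP1 splits dipeptides, including the cysteinylglycine left from glutathione, and varied more than most members. It was at 12.4, 17.5 and 29.3 TPM in the lowest, median and highest WT library, at 15.6, 32.9 and 54.2 TPM in HET and at 9.19, 26.3 and 55.5 TPM in CF. The CF libraries alone spanned a ratio of 6.04, from below all WT libraries to above all HET libraries. Between HET and WT, DPEP1 was higher by 0.81 (SE 0.35, 95% interval 0.08 to 1.54, n = 6 and 6), with an unadjusted p of 0.0311 and an edgeR adjusted p of 0.611. Without pig 13, labelled HET, this was 0.60 (unadjusted p 0.107), and with the proximal tubule marker mean as a covariate it was 0.72 (unadjusted p 0.0677). The CF libraries differed from WT by 0.58 (SE 0.32, unadjusted p 0.0817, edgeR adjusted p 0.434), and this p was under 0.05 in 3 of 23 fits with 1 library left out. Between CF and non-CF, where HET and WT are pooled, the difference was 0.11 (SE 0.27, edgeR adjusted p 0.914). It was -0.29 (SE 0.34) in the first set of pigs and 0.61 (SE 0.35) in the second, and these values differed by 0.90 (SE 0.55), with an edgeR adjusted p of 0.600.

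GGT1 starts the breakdown of glutathione outside the cell by removing its glutamyl residue. It was at 45.3, 56.2 and 66.2 TPM in the lowest, median and highest WT library, at 32.2, 48.2 and 65.6 TPM in HET and at 24.1, 42.0 and 78.2 TPM in CF. The CF libraries thus included both the lowest and the highest of the 23 in TPM, whereas in CPM the highest was pig 16, labelled WT. The log2 fold change between CF and non-CF was -0.07 (SE 0.18, 95% interval -0.45 to 0.30, edgeR adjusted p 0.917). GGT1 was at 80.6 ± 26 CPM in the first set of pigs (SD, n = 13) and at 111 ± 22.2 CPM in the second (n = 10). Means were also higher in the second set for MME (515 ± 60.5 against 430 ± 66.02 CPM) and XPNPEP2 (365 ± 59.2 against 292 ± 57.8 CPM). The CF difference of GGT1 was -0.33 (SE 0.21) within the first set and 0.14 (SE 0.16) within the second.

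MEP1A and MEP1B encode the alpha and beta subunits of meprin, a metalloprotease that cuts within larger peptides and proteins. The alpha subunit gene had 0 to 9 counts per library in WT, 1 to 8 in HET and 1 to 10 in CF, which is at or near the limit of 3 counts and allows no fold change. The beta subunit gene MEP1B was at 4.25, 8.25 and 10.7 TPM in the lowest, median and highest WT library, at 6.81, 10.1 and 23.4 TPM in HET and at 4.41, 6.71 and 12.2 TPM in CF. The 2 highest libraries of all were pigs 19 and 21 of HET, both of the second set as was pig 20, and the other 3 HET libraries lay within the WT range. Between HET and WT, MEP1B was higher by 0.78 (SE 0.29, 95% interval 0.17 to 1.38, unadjusted p 0.0139, edgeR adjusted p 0.556). With the proximal tubule marker mean as a covariate it was 0.52 (unadjusted p 0.0656), and without pig 19, labelled HET, it was 0.57 (unadjusted p 0.0616). Between CF and HET it was lower, with a log2 fold change of -0.63 (SE 0.25, unadjusted p 0.0187, edgeR adjusted p 0.416), and without pig 19 the value was -0.42 (unadjusted p 0.111, edgeR adjusted p 0.832). Both comparisons share the HET libraries. Against WT alone the CF libraries differed by 0.14 (SE 0.26, edgeR adjusted p 0.859), in the opposite direction, and by 0.039 without pig 16, labelled WT. The mean levels of CF and WT were 7.995 ± 2.83 and 7.84 ± 2.82 TPM. MEP1B was at 21.5 ± 7.13 CPM in the first set of pigs and 34.4 ± 14.6 CPM in the second, and within HET at 23.8 ± 2.56 CPM (n = 3) and 51.5 ± 13.6 CPM (n = 3). With the set as a term the values were 0.63 (SE 0.26, unadjusted p 0.0217) between HET and WT and -0.53 (SE 0.22, unadjusted p 0.0233) between CF and HET, both from edgeR. The difference between CF and non-CF was -0.30 (SE 0.24, edgeR adjusted p 0.634), and without pig 19 it was -0.14. With all pigs it was 0.07 (SE 0.24) in the first set and -0.64 (SE 0.26) in the second, and the test of these against each other gave -0.71 (SE 0.39, edgeR adjusted p 0.548).

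The peptide transporters are driven by the proton gradient across the brush border. PEPT2, the high-affinity carrier of the kidney, was the steadiest member in WT. SLC15A2 was at 28.0, 30.1 and 32 TPM in the lowest, median and highest WT library, at 19.2, 25 and 34.2 TPM in HET and at 22.8, 26.1 and 38.3 TPM in CF. The WT libraries were close together and lay inside the ranges of HET and CF. The log2 fold change between CF and non-CF was 0.10 (SE 0.09, 95% interval -0.08 to 0.28, edgeR adjusted p 0.686). The start of SLC15A2 overlaps EAF2 on the same strand, so counts of the shared stretch depend on how reads were divided. PEPT1, the low-affinity carrier best known from the intestine, was much scarcer, and SLC15A1 had 39 to 236 counts per library. It was at 0.701, 0.871 and 1.87 TPM in WT, at 1.14, 1.21 and 1.44 TPM in HET and at 0.413, 1.25 and 2.18 TPM in CF. HET was narrow and CF wide, and the log2 fold change between CF and non-CF was 0.17 (SE 0.21, edgeR adjusted p 0.798), with 0.38 (SE 0.23) in the first set of pigs and -0.09 (SE 0.36) in the second.

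**Figure D2:**
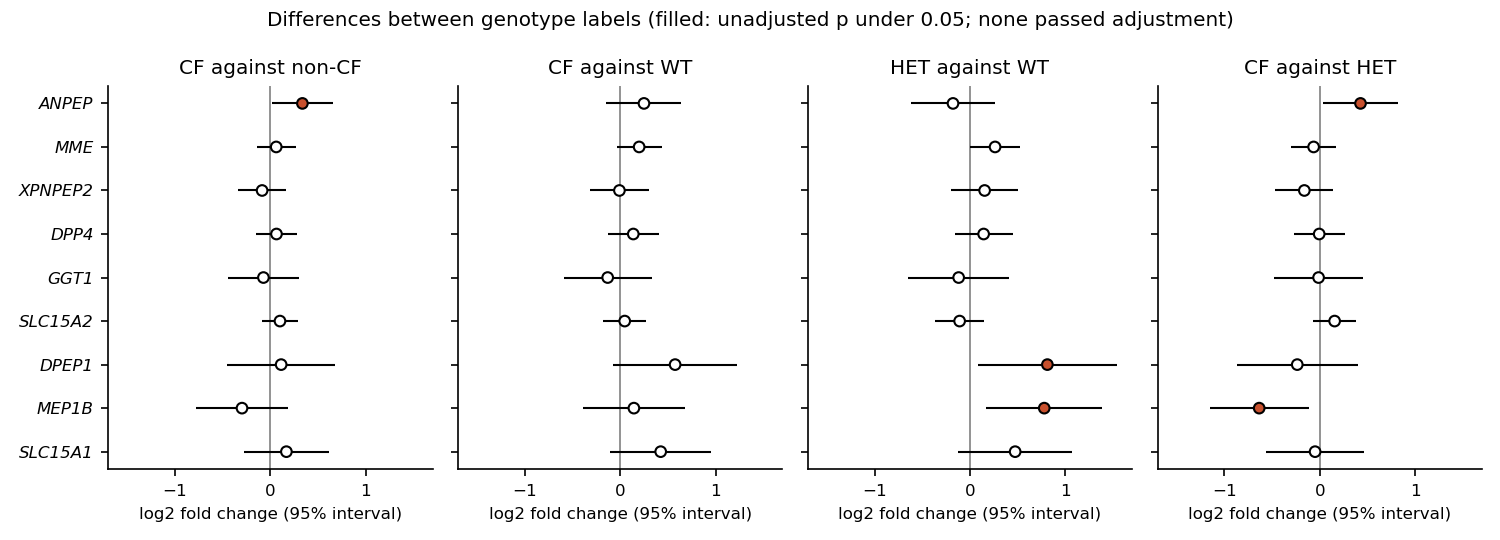
Log2 fold change (horizontal axis) with its 95% interval for the 9 genes tested, in 4 comparisons of genotype labels. Filled points have an unadjusted p under 0.05 and none had an adjusted p under 0.05. The widest intervals belong to DPEP1, MEP1B and SLC15A1, and those of DPP4, MME and SLC15A2 are the narrowest.

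The pairwise comparisons of labels also called no member. Between CF and WT, 0 of 9 members had an adjusted p under 0.05 in edgeR against 72 of 21434 genes (0.336%), and 0 of 9 had an unadjusted p under 0.05 against 14% of all genes. The log2 fold changes ran from -0.13 for GGT1 to 0.58 for DPEP1, with 0.42 (SE 0.26) for SLC15A1 and 0.20 (SE 0.11) for MME. With 1 library left out they ranged from -0.20 to -0.021 for GGT1 and from 0.38 to 0.75 for DPEP1. The ranges were 0.32 to 0.67 for SLC15A1 and 0.11 to 0.26 for MME. DESeq2 (2.68% of genes), limma-voom (0.303%) and edgeR with the set of pigs as a term (0.802%) also gave 0 of 9 members. Between HET and WT the counts were 0 of 9 members against 1 gene (0.00467%), and 2 of 9 members against 8% at the unadjusted level, with 0 of 9 members against 0.159% of genes in DESeq2. Between CF and HET they were 0 of 9 members and 0 genes (0%) in edgeR and limma-voom, with 63 genes (0.294%) and no member in DESeq2. At an unadjusted p under 0.05 the count was 2 of 9 members against 9.83% of all genes. The difference of the CF effect between the sets of pigs was past the adjusted threshold for 0 of 9 members and for 4 of 21582 genes (0.0185%), and 0 of 9 members had an unadjusted p under 0.05 against 10.3% of genes. In these edgeR comparisons without further terms, the members with unadjusted p under 0.05 were ANPEP, DPEP1 and MEP1B, as given above.

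The libraries differed more clearly in which annotated transcript the reads were assigned to than in the gene totals. ANPEP, GGT1, DPEP1 and XPNPEP2 each have 1 RefSeq transcript whose recorded sequence differs from the genome, by 10, 4, 10 and 14 substitutions, next to transcripts predicted from the genome itself. The share of the gene's TPM assigned to that transcript fell into separate clusters of libraries, divided here wherever neighbouring values were more than 10 percentage points apart. The shares rest on the division of shared reads by the pseudoaligner, and the transcripts of a gene also differ in their starts and lengths. What sets the shares was not tested.

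For ANPEP the share was 0.145% or less in 11 libraries, which were all 10 of the second set and pig 18 (WT). The other 12 libraries, all of the first set, held 14.4% to 19% (2 libraries), 35.7% to 43.6% (7 libraries) or 66.3% to 69.2% (3 libraries). The lowest cluster held 3 WT, 3 HET and 5 CF libraries. The gene total did not follow the share, since ANPEP ranged from 121 to 345 TPM in the lowest cluster and from 168 to 233 TPM in the highest. With the share as a covariate, added after the shares had been seen, the difference between CF and non-CF was 0.33 (SE 0.16, edgeR adjusted p 0.341).

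For GGT1 the share was 0.104% or less in 6 libraries, 17.5% to 25.3% in 12 and 55.1% to 59.5% in 5. The highest cluster was of the first set throughout, the middle one held 7 of the first and 5 of the second set, and the lowest held 1 of the first and 5 of the second. Each cluster contained all 3 labels. The GGT1 total was 61.5 to 78.2 TPM in the lowest cluster, 24.5 to 57.2 TPM in the middle and 24.1 to 45.3 TPM in the highest, so the cluster with the lowest share did not overlap the others in TPM. In CPM it did, since pig 23 of that cluster was at 113 CPM for GGT1 and pig 9 of the middle one at 124 CPM. These libraries were sorted by a value from the same gene, and the totals are given as a description. With the share as a covariate the difference between CF and non-CF was -0.13 (SE 0.14, edgeR adjusted p 0.749).

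For DPEP1 the differing transcript held 0.109% to 5.84% in 3 libraries, all of the second set, 42.8% to 71.2% in 10 and 90.1% to 94.7% in 10, of which 8 were of the first set. The totals of the 3 clusters overlapped, at 15.6 to 30.6, 12.4 to 55.5 and 9.19 to 54.2 TPM. For XPNPEP2 the share was 0.256% to 0.393% in pigs 9 (CF), 12 (WT) and 21 (HET), 1 library of each label, and 55.4% to 78.1% in the other 20. The total of XPNPEP2 was 60.03 to 69.3 TPM in these 3 libraries and 61.95 to 134 TPM in the others. In CPM the 3 libraries were at 347, 261 and 336 for XPNPEP2, inside the range of 196 to 454 CPM of the others. By contrast, the main transcript of SLC15A2 held 55.2% ± 3.51 (SD, n = 23) with no separate clusters, and the leading transcript of MME, among 7, held 42.2% ± 8.37. DPP4 and SLC15A1 have 1 annotated transcript each.

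**Figure D3:**
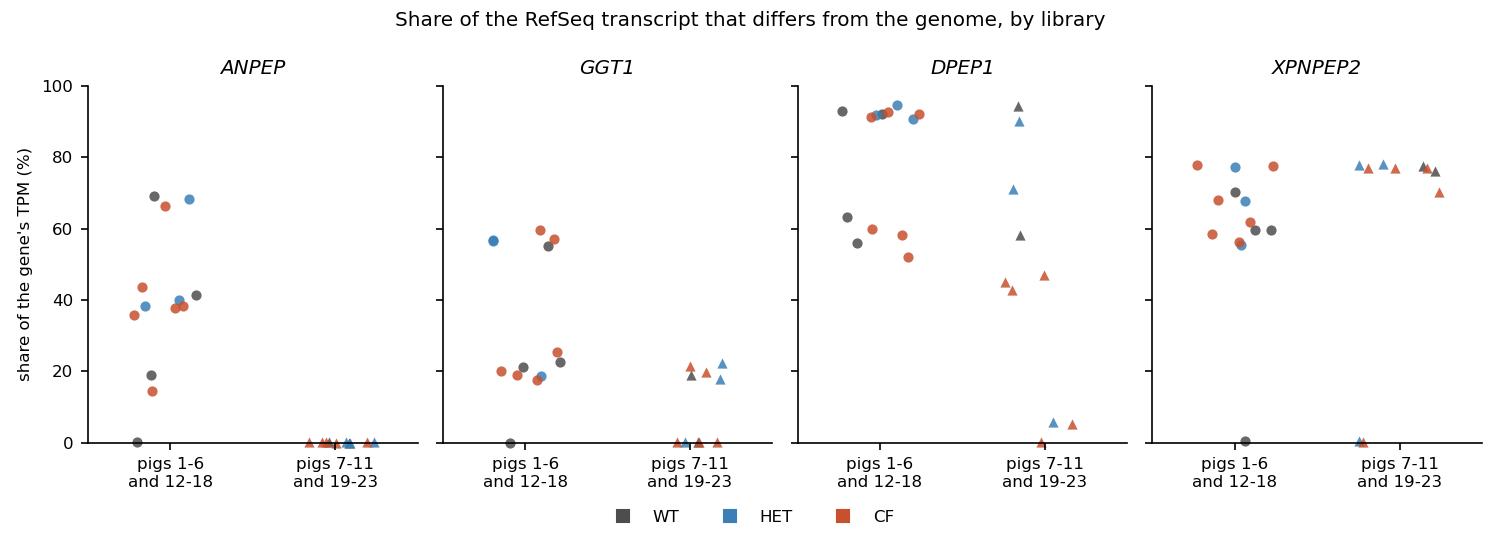
Share of the gene's TPM (vertical axis, percent) assigned to the RefSeq transcript that differs from the genome, for each library of ANPEP, GGT1, DPEP1 and XPNPEP2, in the 2 sets of pigs. Colours give the genotype label. ANPEP lies at or below 0.145% in all 10 libraries of the second set, and XPNPEP2 is near 0 in 3 libraries, 1 of each label.

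**Figure D4:**
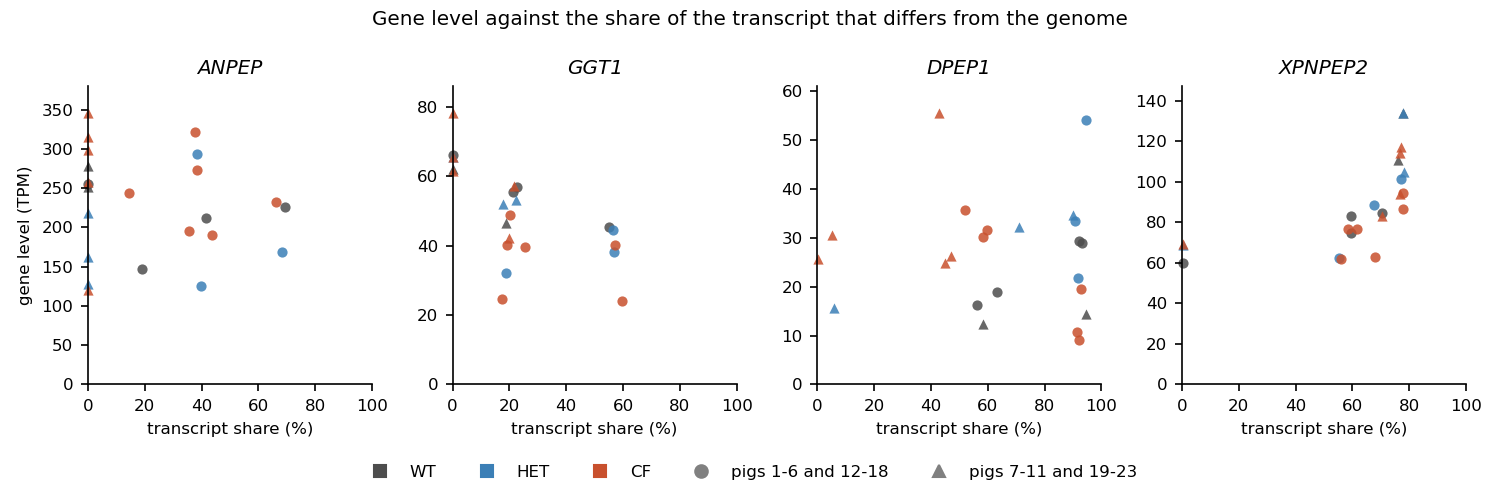
Gene level (vertical axis, TPM, starting at 0) against the share of the differing transcript (horizontal axis, percent) for the same 4 genes, 1 point per library. GGT1 lies between 61.5 and 78.2 TPM in the 6 libraries with a share near 0 and at or below 57.2 TPM in the others, whereas ANPEP and DPEP1 show overlapping levels at all shares.

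Levels of the members varied together only in part. Over the 36 pairs of the 9 tested genes the median Pearson's r of log2 CPM across 23 libraries was 0.17, and it ranged from -0.45 for ANPEP and DPEP1 to 0.85 for DPP4 and MME. These values describe libraries that share their set and the makeup of their tissue. Pairs above 0.5 numbered 5 of 36, formed by MME with DPP4, MEP1B and XPNPEP2 and by XPNPEP2 with GGT1 and MEP1B. After the means of each label within each set were removed, r was 0.90 for DPP4 and MME and 0.25 to 0.499 for the other 4 of these pairs, while SLC15A2 reached 0.53 with MME and 0.51 with DPP4. The mean of the proximal tubule markers had an r of 0.79 with MME, 0.78 with XPNPEP2, 0.62 with DPP4, 0.55 with MEP1B and 0.53 with GGT1. It had an r of 0.41 with SLC15A2, 0.28 with DPEP1, 0.04 with ANPEP and -0.01 with SLC15A1. The mean of the stroma markers had an r between -0.33, with MME, and 0.15, with DPEP1. ANPEP, the most abundant member, thus showed little correlation with the proximal tubule marker mean across these animals.

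**Figure D5:**
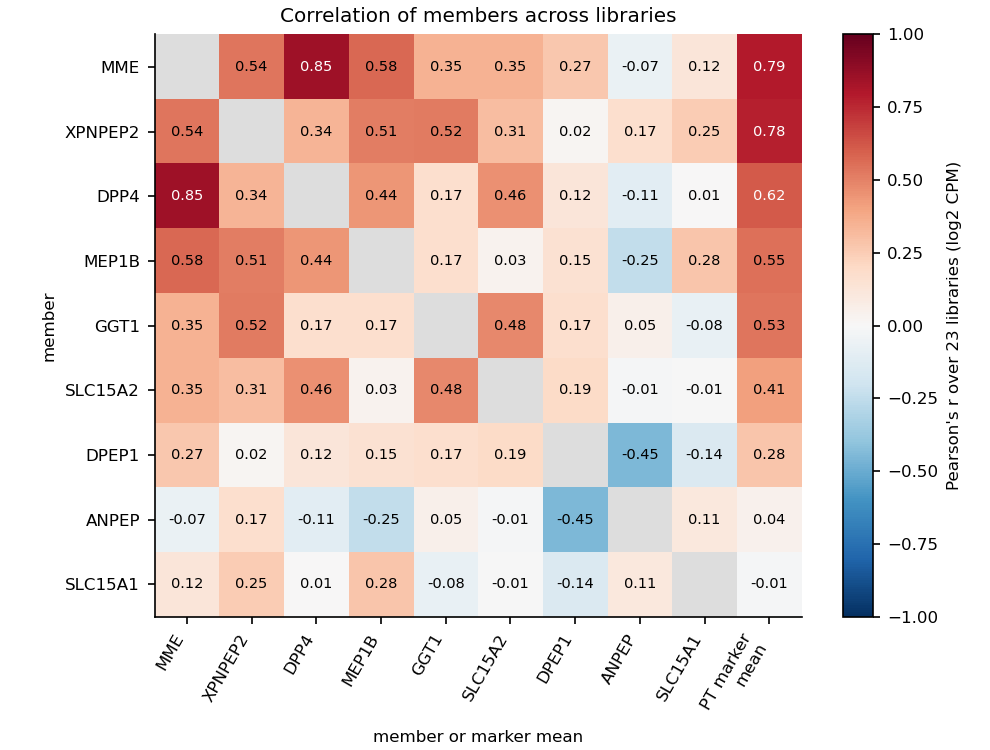
Pearson's r of log2 CPM over 23 libraries for each pair of the 9 tested genes, with the mean of the proximal tubule markers in the last column. Red is positive and blue negative. DPP4 and MME have the highest value (0.85), and ANPEP and SLC15A1 are near 0 with most members and with the marker mean.

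The genes with the levels most like each member across the 23 libraries were found among 14392 genes with a mean log2 CPM of at least 2. They were LOC100739741 (r = 0.94) and SLC30A9 (0.92) for MME, RBM6 (0.89) and FAM114A2 (0.88) for DPP4, AP1M1 (0.87) and NXPH3 (0.85) for GGT1, and CLDN10 (0.85) and ALDH9A1 (0.81) for MEP1B. XPNPEP2 was most like ANXA4 (0.81) and F2 (0.79), and SLC15A2 was most like STXBP6 (0.78) and DIO1 (0.73). The values were lower for DPEP1, with NAALADL1 (0.73) and BCL6B (0.73), for SLC15A1, with ALX1 (0.70) and CENPBD1 (0.63), and for ANPEP, with NTRK3 (0.67) and ZNF672 (0.66).

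The other genes of peptide breakdown and uptake also gave no call between CF and non-CF. Of 15 further brush-border and surface peptidases tested, 0 passed the adjusted threshold, against 0.349% of all genes, 9 were higher and 6 lower, and their median log2 fold change was 0.03 against -0.00 for all genes. The smallest p values were those of the aminopeptidase LVRN (0.98, SE 0.50, edgeR adjusted p 0.396) and of ECE1, the endothelin-converting enzyme (0.18, SE 0.11, edgeR adjusted p 0.478). LVRN was scarce, at 0.43 ± 0.51 CPM in WT, 0.15 ± 0.06 in HET and 0.58 ± 0.70 in CF (SD). Its lowest HET library, at 0.049 CPM, was below the limit of 3 counts. Of 7 further peptide transporters and genes that couple them to protons, 0 passed, 4 were higher and 3 lower. Here SLC9A3, the sodium-proton exchanger NHE3 that sustains the proton gradient, had 0.19 (SE 0.09, edgeR adjusted p 0.377), and SLC15A3, a lysosomal peptide transporter, had -0.24 (SE 0.15, edgeR adjusted p 0.489). A list of 17 peptidases, most of them intracellular enzymes that cut short peptides but with the secreted CNDP1 and PM20D1 among them, included 0 past the adjusted threshold, with 12 lower and 5 higher and a median of -0.06. At an unadjusted p under 0.05, 5 of the 17 were lower and 0 higher, against 13.7% of all genes in both directions together, among them the dipeptidyl peptidase DPP3 (-0.49, SE 0.16, edgeR adjusted p 0.148) and the aspartyl aminopeptidase DNPEP (-0.20, SE 0.07, edgeR adjusted p 0.212).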

How the data were processed

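The authors pseudoaligned RNA-Seq reads of ribosome-depleted kidney cortex RNA to RefSeq transcripts of Sscrofa11.1 with kallisto, and deposited an estimated count, not normalized, and a TPM value for each transcript and library. No aggregated values or test results of the authors were used. Estimated counts were summed per gene symbol and rounded, and TPM values were summed. The members, gene lists and tests were chosen with earlier results of these data known.

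Genes passing filterByExpr were tested with edgeR 4.0.16 in R 4.3.3, using TMM normalization, the quasi-likelihood test and Benjamini-Hochberg adjustment over all genes tested, with 0.05 as threshold. CF was compared with non-CF in 1 fit, and the 3 labels pairwise in another fit of all 23 libraries. Log2 CPM used a prior count of 2. Each library is a separate pig. Totals of 32901194 to 52952229 counts put 3 counts at 0.0567 to 0.0912 CPM. Scripts were tested on simulated data. Alternatives were DESeq2 1.42.0, limma-voom (limma 3.58.1), the Mann-Whitney U test (pseudocount 0.5), other normalizations, no filter, the set of pig numbers or the proximal tubule marker mean as a term, and each library left out. The share of the differing transcript as a covariate was added later. Windows were read with pysam 0.24.0 and figures drawn with matplotlib 3.10.9.

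Named genes are all members, for each list the genes past the threshold or else the 2 with the smallest p, the 2 genes most like each member, defining markers and CFTR. A marker withheld for evaluation is not reported here. Raw reads were not analysed here, and protein sequences were not used here.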

Additional observations from a re-analysis of the deposited data

Results flagged for a closer look

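Of 20 groups of 6 libraries examined for a library far from the others (10 genes in WT and in HET), 3 held such a library, where chance gives about 5%. In pig 19, labelled HET, DPP4 was at 101 TPM, and the next HET library was at 65.4 TPM. In the same library MME was at 192 TPM, and the next HET library was at 148 TPM, while in CPM, at 583 against 507, MME was not past the limit used. In pig 22, labelled WT, SLC15A1 was at 1.87 TPM, and the next WT library was at 1.04 TPM. Pig 19 also had the highest MEP1B of all libraries, at 23.4 TPM, which was not past the same limit. The cause was not tested.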

How the results depend on the processing

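No paired analysis was possible because the labels give each pig a number of its own and the groups share none. All 124 recounts of the members past the adjusted threshold gave 0, and the lowest adjusted p of a member under any alternative was 0.163 (ANPEP, CF against non-CF, 1 library left out). Of 1132 recomputed fold changes of members, 1091 kept their sign and 41 changed it, none of them called. The count of pathway list genes past the threshold was 0 also in DESeq2, in limma-voom and with the set as a term. TPM recomputed from the estimated counts and effective lengths repeats the definition of TPM, so its equal means are no check of the levels. The order of the means of the 9 members with a CPM value was the same in CPM. The highest or lowest library changed for ANPEP, GGT1, DPP4, MME, XPNPEP2, MEP1B, SLC15A1 and SLC15A2. The lowest GGT1 share cluster was separate in TPM but not in CPM.

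The changed signs between CF and non-CF were -0.0059 for DPP4, -0.031 for MME and -0.0195 for SLC15A2 with the Mann-Whitney test, -0.011 for DPEP1 with the proximal tubule markers as a covariate, -0.29 for DPEP1 and 0.073 for MEP1B in the first set of pigs alone, and 0.14 for GGT1 and -0.094 for SLC15A1 in the second. With the marker covariate, MEP1B was -0.049 and SLC15A2 -0.026 between CF and WT, XPNPEP2 was -0.028 between HET and WT, and GGT1 was 0.019 and DPP4 0.022 between CF and HET. With the set as a term GGT1 was 0.0034 and DPP4 0.0017 between CF and HET. With the transcript share as a covariate GGT1 was 0.015 between HET and WT. Leaving out each library gave ranges across 0 for GGT1 (-0.14 to 0.0011) and DPEP1 (-0.084 to 0.27) between CF and non-CF, for SLC15A2 (-0.011 to 0.077) and XPNPEP2 (-0.076 to 0.10) between CF and WT, for GGT1 between HET and WT (-0.25 to 0.0021), and for GGT1 (-0.10 to 0.11), DPP4 (-0.068 to 0.094) and SLC15A1 (-0.12 to 0.043) between CF and HET. Leaving out 1 library also moved values that kept their sign, to -0.14 for MEP1B (without pig 19, HET), 0.0019 for DPP4, 0.0061 for MME and 0.042 for SLC15A2 (each without pig 9, CF), 0.097 for SLC15A1 (without pig 2, CF) and -0.039 for XPNPEP2 (without pig 6, CF) between CF and non-CF. The cause was not tested.

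The number of genes past the threshold depended on the tool. Between CF and non-CF it was 73 of 20921 in edgeR, 515 in DESeq2, 46 in limma-voom, 46 with the Mann-Whitney test and 148 with the set as a term. MEP1A, with 0 to 10 counts per library, was too scarce to test. SLC15A1 had 39 to 236 counts, and the part of depth in its values was not tested.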

Other observations

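Genes around the membrane peptidases were also described between CF and non-CF, as lists chosen with earlier results known. In the glutathione cycle, of which GGT1 and DPEP1 are the outer steps, 0 of 13 further genes passed the adjusted threshold, against 0.349% of all genes, and 3 were higher and 10 lower. The dipeptidase CNDP2, which splits cysteinylglycine inside the cell, differed by -0.31 on the log2 scale (SE 0.14, edgeR adjusted p 0.325), and CHAC1, which degrades glutathione in the cytosol, had 0.91 (SE 0.43, edgeR adjusted p 0.348). The median of the list was -0.03 against -0.00 for all genes.

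Of 12 structural genes of the brush border, 0 passed, with 6 higher and 6 lower. EZR, or ezrin, which ties the membrane to actin, had -0.15 (SE 0.08, edgeR adjusted p 0.411) and USH1C, or harmonin, had -0.14 (SE 0.09, edgeR adjusted p 0.533). Of the 4 HNF factors that drive proximal tubule genes, 0 passed and all 4 had positive values, from 0.01 to 0.29. HNF4G had 0.29 (SE 0.11, unadjusted p 0.0176, edgeR adjusted p 0.241) and HNF4A had 0.10 (SE 0.13, edgeR adjusted p 0.804). Of the 20 proximal tubule markers, 0 passed between CF and non-CF, where the water channel AQP1 had 0.68 (SE 0.16, edgeR adjusted p 0.0534). Between CF and WT, 1 of 20 passed, against 0.336% of all genes, and this was AQP1 at 0.93 (SE 0.19, edgeR adjusted p 0.0303), with 99.5 ± 25.7 TPM in CF, 70.7 ± 17.6 in HET and 55.9 ± 14.4 in WT.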
